A study of Mus musculus with 8 samples.

Results

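Collagen I is the main fibrous protein of connective tissue matrix, and its genes were examined here together with 5 other autosomal genes of matrix structure and remodelling for H3K27me3, a repressive histone mark, in mouse myoblasts. The 7 genes, taken by name from the deposited profiles, were Col1a1 and Col1a2 (the chains of collagen I), Dcn (decorin, a proteoglycan that binds collagen fibrils), Efemp1 (fibulin-3, a matrix glycoprotein), Aebp1 (a collagen-binding secreted protein), and Adam12 and Adamts12 (metalloproteinases). They were 7 of the 273 genes that the profiles cover, and all 7 stood among the 220 genes that the authors listed as UP in the knockout rather than among the 53 listed as DOWN. The sources do not say how the authors made these lists, so membership says nothing of a direction in the mark.

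The mark was measured by CUT&RUN, in which an antibody holds a nuclease at the mark so that the DNA around it is released and sequenced, in primary myoblasts cultured from hindlimb muscle. Control cells were Pax7 +/+; Psat1fl/fl and knockout cells (Psat1cKO) were Pax7 CRE+/-;Psat1fl/fl, so that both carried floxed alleles of Psat1, an enzyme gene of serine synthesis, and Cre was driven from the locus of Pax7, a gene of muscle stem cells, in the knockout only. There were 2 H3K27me3 libraries per genotype, and the 4 IgG libraries were not analysed here. The labels give no age, and nothing in them says that replicates came from different mice or cultures, so the p-values reflect only how these libraries vary, which may be technical.

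H3K27me3 is placed by Polycomb repressive complex 2 and is typically found around the starts of developmental genes that are silent in a given cell type, often where the promoter is rich in CG dinucleotides. Collagen I is a triple helix of 2 chains from Col1a1 and 1 chain from Col1a2, made mainly by fibroblasts and bone cells. In muscle, fibro-adipogenic cells of the connective tissue make most of the collagen and decorin, and myoblasts grow on this matrix. The levels below are of the mark and not of RNA, and a mean over a population cannot tell a weak mark in every cell from a strong mark in a few.

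RefSeq promoters (build GRCm38.p6, 250 bases before to 50 after a start) were matched for 4 of the 7 genes. They are shown because the H3K27me3 signal around the start differed between these genes. Efemp1 and Aebp1 had a mean control signal there of 0.152 and 0.0994, and Col1a2 and Adamts12 had 0.0354 and 0.0206. The mean over all listed genes was 0.202, and no IgG level was used to call a gene marked. The start window took in profile points inside the gene, which are stretched with its length. If stretched evenly, each such point stands for 173 bp in Aebp1, 599 in Col1a2, 1227 in Efemp1 and 4741 in Adamts12. The windows are thus of unlike width in bases, and the effect of this on the signals was not tested. All 4 are on the plus strand, at chr11:28852955-28853254 for Efemp1, chr11:5861616-5861915 for Aebp1, chr6:4505368-4505667 for Col1a2 and chr15:11064523-11064822 for Adamts12. Each is written 5′ to 3′ and capitals mark each CG, the only motif searched, which reads the same on both strands.
Efemp1: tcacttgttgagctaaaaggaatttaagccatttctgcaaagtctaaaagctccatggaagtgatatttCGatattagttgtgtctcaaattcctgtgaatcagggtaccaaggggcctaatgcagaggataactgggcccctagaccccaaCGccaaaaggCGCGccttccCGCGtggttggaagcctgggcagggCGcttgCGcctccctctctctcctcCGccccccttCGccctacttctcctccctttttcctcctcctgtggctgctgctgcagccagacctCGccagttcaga
Aebp1: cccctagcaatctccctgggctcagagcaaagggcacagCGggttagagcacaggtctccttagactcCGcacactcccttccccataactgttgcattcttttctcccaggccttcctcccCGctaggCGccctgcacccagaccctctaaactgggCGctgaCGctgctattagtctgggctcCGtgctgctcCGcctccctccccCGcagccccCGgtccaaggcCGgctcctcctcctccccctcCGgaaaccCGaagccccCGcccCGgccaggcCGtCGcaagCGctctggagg
Col1a2: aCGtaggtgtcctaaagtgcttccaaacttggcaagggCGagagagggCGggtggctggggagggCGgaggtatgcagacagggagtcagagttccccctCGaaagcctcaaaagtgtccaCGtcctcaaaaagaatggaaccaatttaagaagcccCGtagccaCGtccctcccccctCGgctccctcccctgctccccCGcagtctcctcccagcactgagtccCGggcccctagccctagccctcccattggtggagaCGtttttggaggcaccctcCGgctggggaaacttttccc
Adamts12: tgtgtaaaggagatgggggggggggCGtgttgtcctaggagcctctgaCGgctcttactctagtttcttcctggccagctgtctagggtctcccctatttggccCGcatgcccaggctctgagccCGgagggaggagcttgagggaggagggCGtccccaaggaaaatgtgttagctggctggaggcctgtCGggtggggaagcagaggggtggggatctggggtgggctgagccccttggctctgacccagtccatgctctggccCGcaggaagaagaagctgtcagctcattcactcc

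The window of Aebp1 held 18 CG, that of Col1a2 13, that of Efemp1 11 and that of Adamts12 7. At least as many were held by 29.7%, 37.9%, 41.4% and 52.1% of all 32851 RefSeq mouse promoters of this length, whose median was 7. The order by CG count was not the order by signal, since Efemp1 had the most signal and only the third count. Over the 192 listed genes with a matched promoter, CG count and signal around the start had a Spearman rho of 0.33, 0.32, 0.36 and 0.30 in control replicates 1 and 2 and knockout replicates 1 and 2. Those values are a description across genes within each library, and genes are not independent replicates. The width of the start window in bases also grew with gene length, which was not corrected for. The median control signal around the start was 0.0245 in the 48 of these genes with the fewest CG and 0.152 in the 48 with the most.

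**Figure D1:**
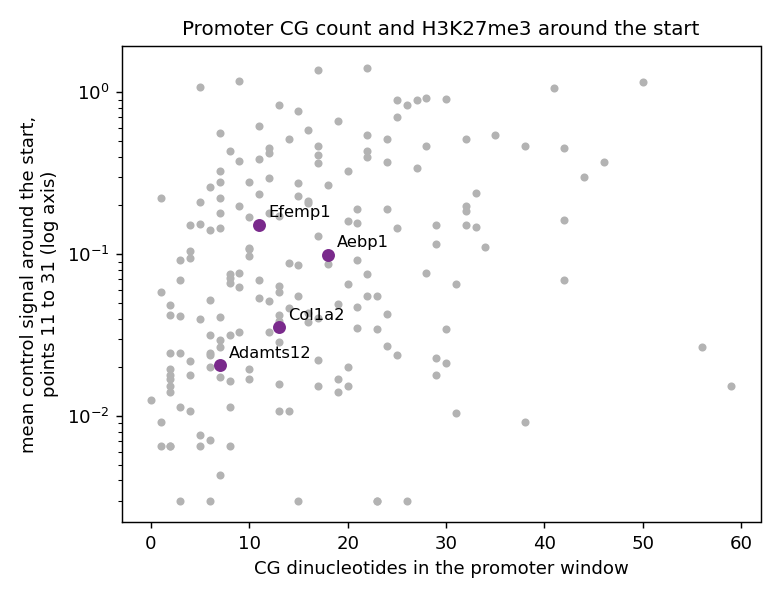
Mean control H3K27me3 signal around the start (deposited coverage units, log axis) against the number of CG dinucleotides in the promoter window, 1 point per gene for 192 genes, with the 4 matched matrix genes in purple. Signal under 0.003 is drawn at 0.003. Efemp1 (11 CG) and Aebp1 (18 CG) lie above Col1a2 (13 CG) and Adamts12 (7 CG).

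Each gene is described by coverage at a fixed number of points from its 5′ flank to its 3′ flank, with the gene itself stretched over points 21 to 81, as inferred from the values. The level of a gene is its mean signal per point, in the authors' coverage units. It counts flank and body points alike, so it is not a level per base of the gene. If the body is stretched evenly, 1 body point stands for 173 bp in Aebp1 and 5698 bp in Adam12. The coverage came in steps of 0.0907 to 0.115 in the 4 libraries, and 90.9 to 92.4% of values were whole steps. The number of reads is not stated; if the scale is per 1000000 reads, the libraries held 8.70 to 11.03 times that number. The median gene had a level of 0.0633 and 0.0637 in control and of 0.0748 and 0.0542 in knockout replicates 1 and 2. The lower quartile of all genes was 1.21 times as high in knockout as in control in replicate 1 and 0.769 times as high in replicate 2. Of the marker genes listed for myoblasts, Pax7 and Myf5 are among the 273 genes, and for fibroblasts Pdgfra, Dcn and Col1a1, but the mark on them does not measure how many cells of a type were present. The deletion of Psat1 was not checked here.

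Of the collagen I genes, Col1a1 (chr11:94936224-94953042, plus strand, 16.8 kb) was the most marked of the 7 genes. Its level was 0.245 and 0.127 in control and 0.214 and 0.130 in knockout replicates 1 and 2. Replicate 1 was the higher library in both genotypes, and the values of the genotypes overlapped. In control Col1a1 took place 63 of 273, with a mean of 0.186 ± 0.0836 (SD, n = 2), against 0.172 ± 0.0592 (SD, n = 2) in knockout. Relative to control of the same replicate, knockout stood at 0.870 in replicate 1 and at 1.02 in replicate 2.

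Col1a2 (chr6:4505618-4541543, plus strand, 35.9 kb) carried far less of the mark than its partner chain. It had 0.0260 and 0.0535 in control and 0.0473 and 0.0261 in knockout replicates 1 and 2. The high libraries were control replicate 2 and knockout replicate 1, so the genotypes overlapped and replicates went opposite ways, with ratios of knockout to control of 1.82 and 0.488. Its control mean, 0.0398 ± 0.0194 (SD, n = 2), put it in place 168 of 273. Col1a1 was above Col1a2 in each of the 4 libraries, without overlap.

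The chains also differed in where the signal lay. In Col1a1 it formed a broad rise within the gene. Over points 41 to 61, the middle of the body, the mean signal was 0.541 and 0.225 in control and 0.411 and 0.224 in knockout replicates 1 and 2. Around the start, points 11 to 31, it was 0.0862 and 0.107 in control and 0.167 and 0.129 in knockout. The middle was thus above the start in every library, by 6.28 and 2.10 times in control and 2.46 and 1.74 times in knockout. Over all genes the same ratio was 0.534 to 0.609, so the usual gene had more signal at its start. The windows were chosen after the profiles had been seen.

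The middle of the body was above the start in all 4 libraries in 32 of the 273 genes (11.7%). Col1a1 was the only one of the 7 matrix genes among them, and 2 of 27 other matrix genes, Col16a1 (a collagen chain) and Mfap5 (a microfibril protein), were too. By signal in the middle of the body Col1a1 ranked 14, 41, 16 and 41 of 273 in control replicates 1 and 2 and knockout replicates 1 and 2. By signal around the start its best rank in any library was 100 and its lowest 132. The highest 5-point stretch was centred at point 52 and 57 in control and at point 54 and 56 in knockout. If the body is stretched evenly, at 280 bp per point, these centres are 8.69, 10.1, 9.25 and 9.81 kb from the start. A highest stretch between points 41 and 61 was found in 18 of 218 genes with enough signal to test (8.26%), while 47.2% of them had theirs around the start. The nearest annotated gene, Sgca, lies 9.74 kb beyond the 3′ end of Col1a1, and no annotated gene overlaps Col1a1.

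**Figure D2:**
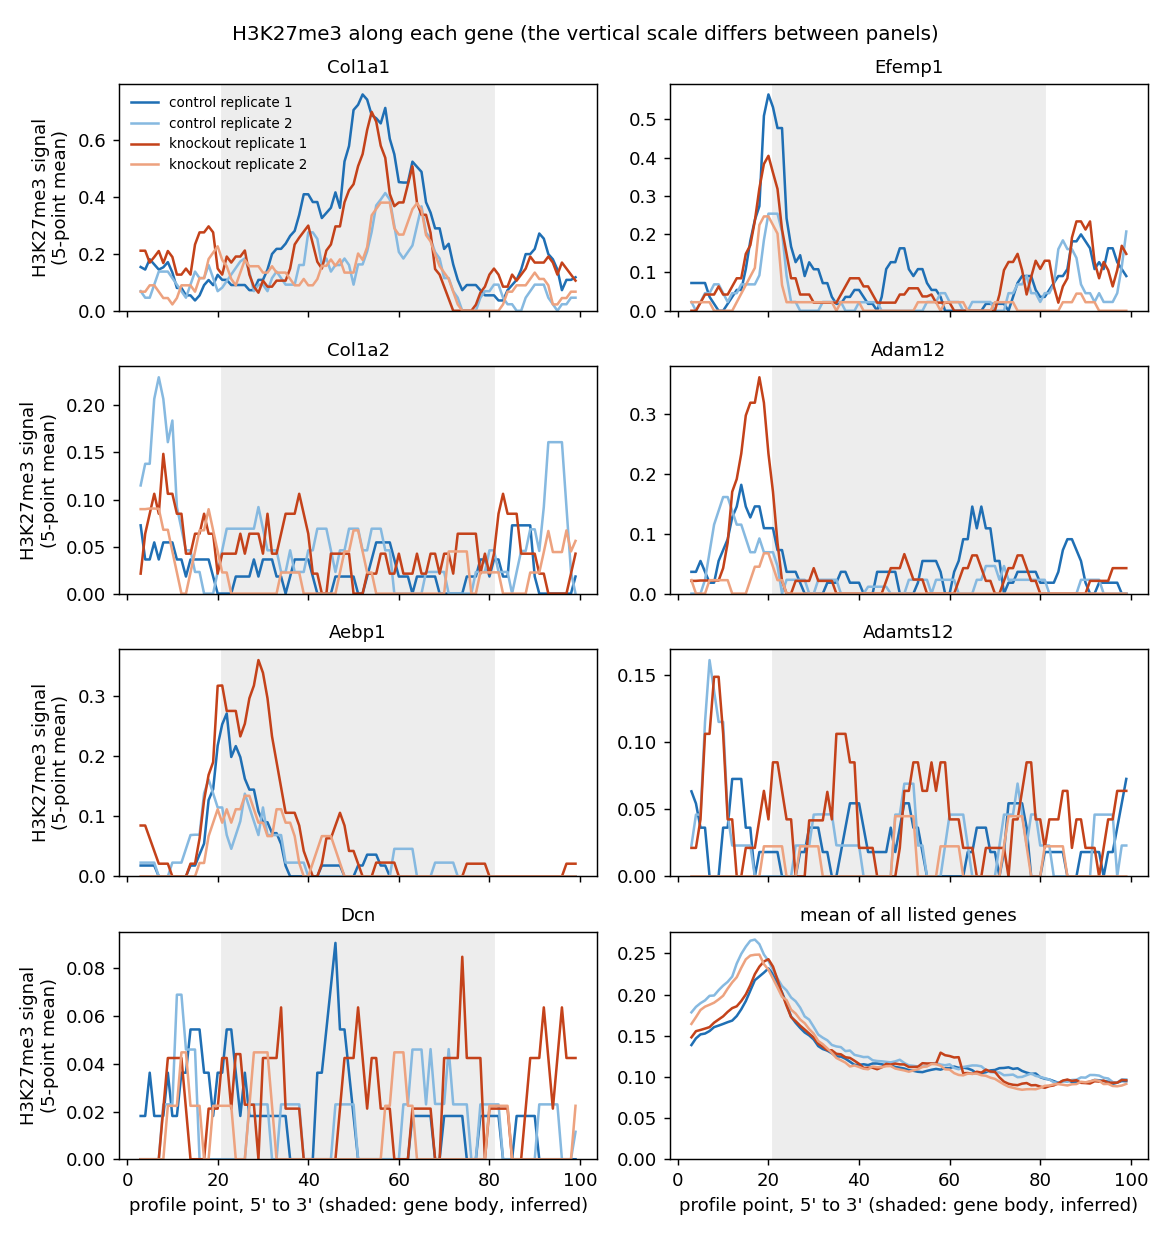
H3K27me3 signal (running mean of 5 points, deposited coverage units) along the 7 genes and as the mean of all listed genes, 1 line per library, with the inferred gene body shaded; vertical scales differ. All 4 libraries of Col1a1 rise inside the body, with centres at points 52 to 57, whereas Efemp1 and Aebp1 rise at the start as the mean of all genes does.

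Col1a2 showed no such rise. Its highest window was the upstream flank in all 4 libraries, at 0.0453 and 0.0920 in control and 0.0690 and 0.0618 in knockout replicates 1 and 2, and the genotypes overlapped there. Profile points of Col1a2 correlated little between libraries (mean Spearman rho over the 6 library pairs 0.04, from -0.05 to 0.14), against 0.38 (from 0.26 to 0.45) for Col1a1 and a median of 0.35 over the 218 genes kept. In steps of coverage the sum for Col1a2 ran from 23.52 in knockout replicate 2 to 46.97 in control replicate 2. For Col1a1 it ran from 111.7 in control replicate 2 to 273.3 in control replicate 1. The low rho of Col1a2 thus cannot tell a shape that differs between libraries from sparse coverage. The mean profiles of Col1a1 and Col1a2 had a rho of -0.18. The genes whose profiles were most like that of Col1a1 were Gsto2 (a glutathione transferase), Fsd2 and Il11 (a cytokine), with rho of 0.54, 0.53 and 0.52 over all points of the mean of 4 libraries. For Col1a2, again limited by its sparse coverage, they were Fstl1, Mme and Jag1, at 0.38, 0.33 and 0.33. Neighbouring points can share the same reads, so these are descriptions.

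**Figure D3:**
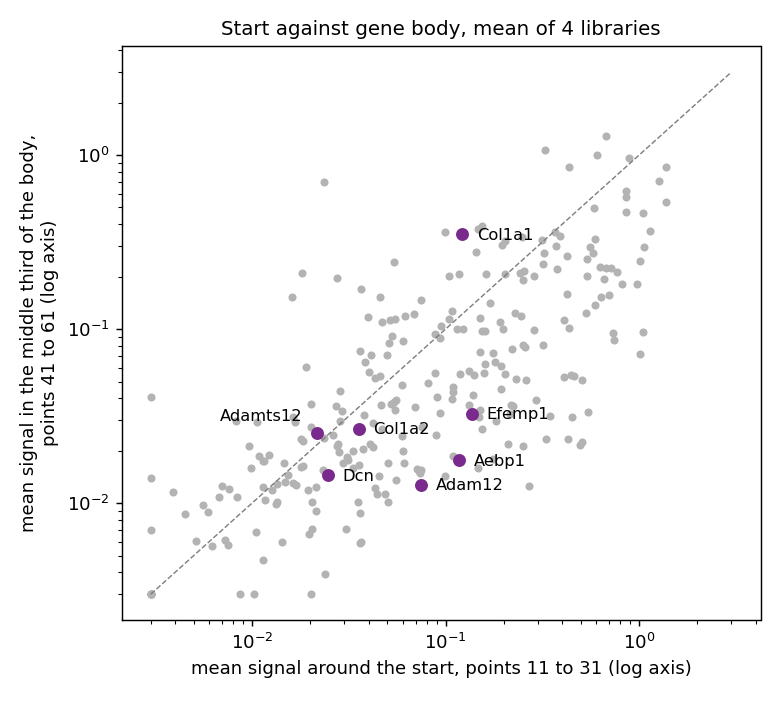
Mean H3K27me3 signal of 4 libraries in the middle of the gene body (points 41 to 61) against that around the start (points 11 to 31), both on log axes in deposited coverage units, 1 point per gene for 273 genes, with the 7 matrix genes in purple; signal under 0.003 is drawn at 0.003. Col1a1 lies above the dashed line of equal signal, Adamts12 lies just above it, and Efemp1, Aebp1 and Adam12 lie well below it.

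Among the structural and binding proteins of the matrix, Efemp1 (chr11:28853154-28926743, plus strand, 73.6 kb) had a level of 0.0982 and 0.0546 in control and 0.0861 and 0.0255 in knockout replicates 1 and 2. Knockout was lower than control in both replicates, at 0.877 and 0.467 times control. Knockout replicate 1 nevertheless lay above control replicate 2, so the genotypes overlapped. The means were 0.0764 ± 0.0308 in control and 0.0558 ± 0.0429 in knockout (SD, n = 2 each).

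The signal of Efemp1 formed a narrow rise at the start in all 4 libraries. At this length 1 body point stands for 1227 bp, more than the printed promoter. Around the start the mean was 0.222 and 0.0823 in control and 0.162 and 0.0800 in knockout replicates 1 and 2. The highest 5-point stretch was centred at points 20 and 22 in control and 20 and 19 in knockout, at the same place in both genotypes. In replicate 2 the genotypes were nearly equal at the start, while the 3′ flank had 0.115 in control and 0.0112 in knockout. In replicate 1 that flank had 0.122 in control and 0.133 in knockout. In control replicate 2 the 3′ flank was above the mean around the start, 0.0823. Among the flanks and the parts of the body, the 3′ flank was highest in control replicate 2 and knockout replicate 1. It was not the highest in control replicate 1 or knockout replicate 2. In knockout replicate 2 a single point held 26.1% of the signal of the gene, against 6.10 to 11.9% in the other libraries.

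Aebp1 (chr11:5861866-5872248, plus strand, 10.4 kb) is the shortest of the 7. Its level was 0.0305 and 0.0262 in control and 0.0652 and 0.0233 in knockout replicates 1 and 2. Knockout replicate 1 stood above the other 3 libraries, at 2.14 times its control, while knockout replicate 2 was the lowest, at 0.889 times its control. The signal lay at the start and in the first part of the body. In points 21 to 40 it was 0.104 and 0.0575 in control and 0.218 and 0.0840 in knockout, and there too the genotypes overlapped. The 3′ flank held at most 0.0053 in any library. Its shape repeated best of the 7, with a mean rho of 0.45 (from 0.28 to 0.65). Pold2, a DNA polymerase subunit gene, overlaps Aebp1 in the annotation. Signal within the shared stretch cannot be given to 1 gene alone, but where along Aebp1 that stretch lies is not given here.

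Dcn (chr10:97479500-97518163, plus strand, 38.7 kb) had almost none of the mark. Its level was 0.0180 and 0.0142 in control and 0.0242 and 0.00998 in knockout replicates 1 and 2. In steps of coverage these levels are sums of only 9 to 23.1 over the whole profile. Knockout held both the highest and the lowest library. Each library had a different highest window, and no place along the gene repeated (mean rho 0.08). In control Dcn was in place 235 of 273, and it was the only one of the 7 genes with too little signal to enter the test.

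Of the metalloproteinase genes, Adam12 (chr7:133883199-134225097, minus strand, 342 kb) had 0.0449 and 0.0267 in control and 0.0453 and 0.00554 in knockout replicates 1 and 2. The level in knockout replicate 2 was a sum of 5 steps, each at a different point, against at least 23.5 in the other libraries. The genotypes were nearly equal in replicate 1, with a ratio of 1.01, and knockout was at 0.207 of control in replicate 2.

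The upstream flank was the highest window of Adam12 in all 4 libraries, at 0.0862 and 0.0805 in control and 0.149 and 0.0224 in knockout replicates 1 and 2. Both controls were close there and lay between the knockouts. Centres of the highest stretch ran from point 10 to point 19, on the upstream side of the start. Adam12 overlaps 4 other annotated genes. The nearest gene on the upstream side, D7Ertd443e, lies 40.7 kb away, and Fank1 lies 1.66 kb beyond the 3′ end.

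Adamts12 (chr15:11064773-11349232, plus strand, 284 kb) had 0.0256 and 0.0273 in control and 0.0451 and 0.00887 in knockout replicates 1 and 2. The controls were within 0.0265 ± 0.0012 (SD, n = 2), while the knockouts, at 0.0270 ± 0.0256 (SD, n = 2), lay on either side of them. In replicate 1 knockout was at 1.76 times control and in replicate 2 at 0.325 times. Its upstream flank was the highest window in 3 of the 4 libraries, all but knockout replicate 2, and the highest point was point 8 in both control replicate 2 and knockout replicate 1. Over the whole profile the libraries had a mean rho of 0.03.

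**Figure D4:**
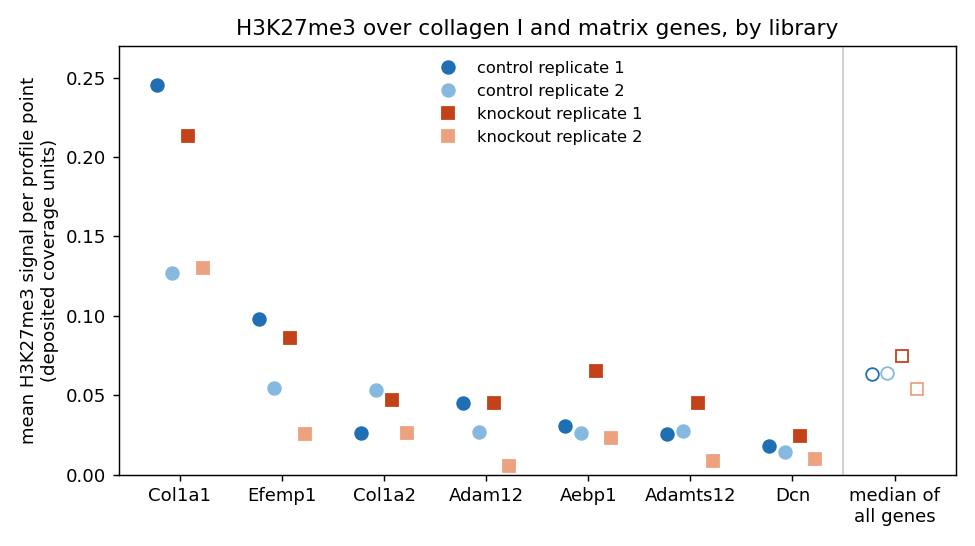
Mean H3K27me3 signal per profile point (deposited coverage units) of each gene in each of the 4 libraries, with circles for control and squares for knockout, and at the right the median of all 273 genes. Col1a1 is the highest of the 7 in every library, from 0.127 to 0.245, and knockout replicate 1 lies above knockout replicate 2 for all 7.

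By the control mean the order was Col1a1, Efemp1, Col1a2, Adam12, Aebp1, Adamts12 and Dcn. Col1a1 lay above Efemp1 without overlap of the control libraries. Efemp1 lay above Col1a2 without overlap too, but only narrowly, at 0.0546 against 0.0535 in control replicate 2. In knockout replicate 2 Col1a2 was the higher, at 0.0261 against 0.0255. Col1a2, Adam12, Aebp1 and Adamts12 overlapped as neighbours. Dcn lay below Adamts12 without overlap. The median of the 7 control means was 0.0358, against 0.0540 for 27 other matrix genes and 0.0651 for all 273. Efemp1, in place 129, and Col1a1 were above that median of all genes, and the other 5 were below it.

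The test of knockout against control was limma on the log2 of the sum over points plus 1, and p-values were adjusted by Benjamini-Hochberg over the 218 genes with enough signal. None of the 6 matrix genes in the test passed an adjusted p of 0.05, against a background of 0% of all genes tested; at an unadjusted p under 0.05 there was 1 gene of the 218. The log2 change was -0.08 ± 0.46 (SE) for Col1a1, -0.07 ± 0.58 for Col1a2, -0.52 ± 0.59 for Efemp1 and 0.39 ± 0.61 for Aebp1. It was -0.62 ± 0.75 for Adam12 and -0.18 ± 0.71 for Adamts12, and the adjusted p in limma was 0.999 for all 6. In this fit, which had no replicate term, each of the 6 estimates was smaller than its SE. Without the filter Dcn had 0.01 ± 0.47. With 2 against 2 libraries an exact permutation test of 1 gene cannot give a two-sided p under 0.333.

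The sign of the change depended on the replicate. In replicate 1 knockout was higher than control in 5 of the 7 genes (background 59% of all genes) and lower in 2, Col1a1 and Efemp1 (40.7%). In replicate 2 it was higher in 1, Col1a1 (31.9%), and lower in 6 (67%). The 2 replicates went opposite ways in 6 of 7 genes (46.5%), 5 of them higher in replicate 1 and lower in replicate 2 (36.6%). Knockout was higher in both replicates in 0 genes (22%) and lower in both in 1, Efemp1 (30.4%).

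In 0 of 7 genes did both knockout libraries lie above both controls (5.86%), and in 0 did they lie below (9.52%). The gap between the mean of replicate 1 and that of replicate 2, each over both genotypes, exceeded the gap between the genotype means in all 7 (79.9%). Knockout replicate 1 was above knockout replicate 2 in all 7 (70%), by 1.64 times for Col1a1 up to 8.17 times for Adam12. In control, replicate 1 was above replicate 2 in 5 (56%), by up to 1.93 times for Col1a1, and Col1a2 was at 0.487 times replicate 2. The median log2 change of the 7 was 0.29 in replicate 1 and -0.82 in replicate 2, beside 0.10 and -0.16 over all genes. The lower quartile of all genes moved the same ways, at 1.21 and 0.769 times control, and its part in these changes was not tested.

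**Figure D5:**
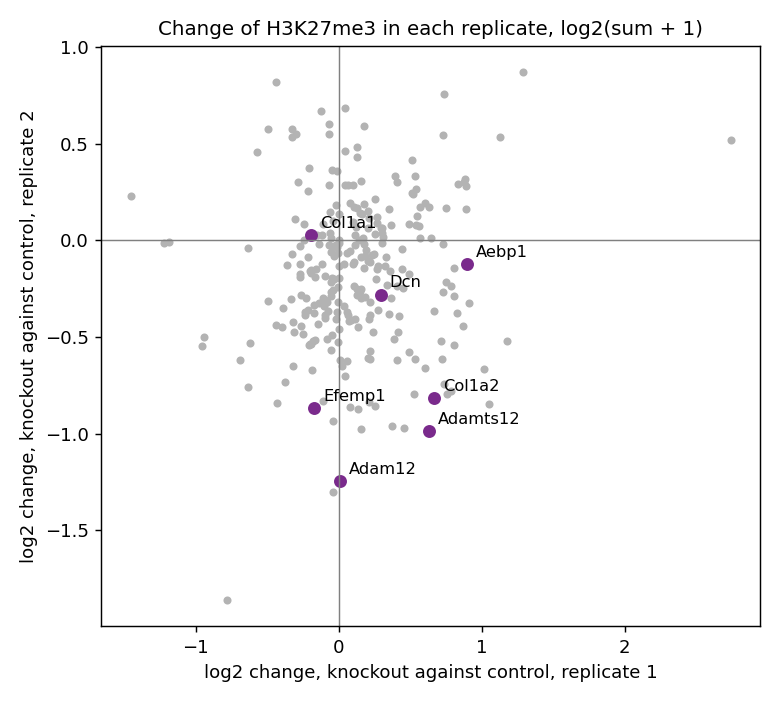
Log2 change of H3K27me3, knockout against control, on the log2(sum + 1) scale in replicate 2 against that in replicate 1, 1 point per gene for 273 genes, with the 7 matrix genes in purple. Of the 7, 5 lie to the right of 0 and below 0, Efemp1 lies below 0 on both axes and Col1a1 lies close to 0 on both.

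The start and the body of Col1a1 were read in separate fits, on windows that share points 21 to 31. Around the start both knockout libraries, 0.167 and 0.129, lay above both controls, 0.0862 and 0.107, which held for 1 of the 7 genes (background 7.69%), and no other of the 7 was higher in both replicates there (22.7%). In the limma fit on points 11 to 31 its log2 change was 0.43 ± 0.46 (SE), with an adjusted p of 0.991. Over the body, points 21 to 81, Col1a1 was lower in knockout in both replicates, as were Efemp1 and Adam12, which makes 3 of the 7 (30.8%). For Col1a1 in replicate 2 this was close to a tie. The first, middle and last parts of the body had 0.124, 0.225 and 0.138 in control and 0.123, 0.224 and 0.134 in knockout there. In replicate 1 they had 0.180, 0.541 and 0.231 in control and 0.155, 0.411 and 0.148 in knockout. In the limma fit on those points Col1a1 had -0.20 ± 0.45, with an adjusted p of 0.997. Neither difference passed the test, and the difference between start and body was not tested.

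A list of matrix proteins and remodelling enzymes held 240 genes. Besides the 7, 27 of them were among the 273 genes, all on the UP list, and 22 had enough signal for the test. None of the 22 passed it. Smoc2, a calcium-binding matrix glycoprotein, had the highest control level, 0.605 ± 0.0209 (SD, n = 2), against 0.537 ± 0.0446 in knockout. It was followed by Timp3, an inhibitor of metalloproteinases, with 0.289 in control and 0.370 in knockout, and by Mfap5 with 0.218 and 0.215. Next were Col4a5, a chain of basement membrane collagen, with 0.160 and 0.0994, the protease gene Htra1 with 0.146 and 0.153, and Bgn, a proteoglycan close to decorin, with 0.139 and 0.0905. Of these, Smoc2, Timp3 and Mfap5 had a higher control mean than Col1a1. Col4a5 had 0.110 and 0.211 in control and 0.0523 and 0.147 in knockout replicates 1 and 2. Bgn had 0.106 and 0.171 in control and 0.0656 and 0.115 in knockout. Both were lower in knockout in each replicate, but the genotypes overlapped. The 27 genes, unlike the 7, were not limited to autosomes. Knockout was higher than control in both replicates in 4 of the 27 (background 22% of all genes) and lower in both in 7 (30.4%). The replicates were opposite in 16 (46.5%). The median log2 change of the 27 was 0.08 in replicate 1 and -0.23 in replicate 2.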

How the data were processed

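The deposited data were 2 tables, each with a block for 1 control and 1 Psat1cKO library. The authors deposited a signal at numbered points for each transcript, per the file headers, and its steps are those of scaled coverage, as judged from the values. Per the submitters' processing notes Trimmomatic 0.36, Bowtie (version not given), Picard 2.22.2 and build mm10 were used. Scaling, flank width and profiling program are not stated. The tables carry numbers, which were read as the replicate numbers of the labels. No IgG signal was subtracted here.

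Coordinates, counted from 1, and promoters came from RefSeq tables of GRCm38.p6, the assembly of mm10, which matched 268 of 273 genes by transcript. No exon annotation was used. Whole steps of coverage were counted within 0.02 of a step for values above 0.01. Genes with a sum over points above 2.35, the lower quartile, in at least 2 libraries were kept (218). limma 3.58.1 in R 4.3.3 was fitted to log2(sum + 1) with a variance trend and no replicate term, with Benjamini-Hochberg adjustment at 0.05. The code was also run on simulated data with a smaller spread and larger changes than these, which does not show its power here. Log2 changes on this scale understate changes of low genes. Python 3.11.15, numpy 2.4.6, pandas 2.3.3 and matplotlib 3.10.9 did the rest.

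The 7 genes and the lists were chosen with earlier results of these data known. The rule for named genes was all 7, the 3 genes with the most similar profile for each collagen chain, and up to 6 other matrix genes with the highest control level; Col16a1 and the neighbours of the 7 were named after their values or positions were seen. Alternatives were other pseudocounts, filters and normalizations, parts of the profile, a replicate block and each library left out.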

Additional observations from a re-analysis of the deposited data

How the results depend on the processing

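Of the values under the alternatives, 69 kept their direction and side of the threshold, 14 changed sign and 6 moved in count or order. No adjusted p of the 6 tested genes, which ran from 0.730 to 1 over 72 alternatives, passed 0.05. With all libraries the sign turned in 3 genes: Col1a1 had 0.067 with quantile normalization and 0.43 with points 11 to 31, Col1a2 0.0068 with points 11 to 31, and Adamts12 0.00054 with the mean over points, 0.041 with points 11 to 31 and 0.10 with points 21 to 81. The cause was not tested. Leaving out 1 library gave log2 changes of -0.53 to 0.37 for Col1a1, -0.48 to 0.34 for Col1a2, -1.24 to 0.20 for Efemp1, -0.20 to 0.98 for Aebp1, -1.54 to 0.30 for Adam12 and -0.95 to 0.60 for Adamts12. Without knockout replicate 2 the sign turned for 5 of the 6 genes, all but Aebp1, which turned without knockout replicate 1. Col1a1 also turned without control replicate 1 and Col1a2 without control replicate 2. Leaving out 1 library called 0 to 1 genes, the 1 being Pax7 without control replicate 2, where the lone control library is assumed to vary like the others. Of the 7 places in the control order, 4 were kept in each control library on its own and in knockout replicate 1, 2 in knockout replicate 2 and 1 with points 11 to 31.

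The replicate number as a block called 0 genes, with 15 at an unadjusted p under 0.05 in limma and a smallest adjusted p of 0.653, and left Col1a1 at -0.08 ± 0.14 (SE). Col1a2 and Adamts12 also stayed within their SE, at -0.07 ± 0.47 and -0.18 ± 0.50. With this block the estimates of Efemp1, -0.52 ± 0.28, Adam12, -0.62 ± 0.41, and Aebp1, 0.39 ± 0.36, exceeded their SE. The labels do not say what a number shares; across 218 genes the difference between replicates 1 and 2 in control and in knockout had r = 0.76, as a hint from the data. The low levels of Dcn, Adam12 and Adamts12, of a few steps of coverage in some libraries, limit the precision there. The low level of Col1a2, at 23.52 to 46.97 steps, limits it too, for its shape as well as its change.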
